A study of Caenorhabditis elegans with 6 samples.

Results

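The cytosolic chaperonin CCT, also called TRiC, is a barrel of a pair of stacked rings in which related proteins, encoded in the worm by the 8 genes cct-1 to cct-8, each hold a fixed place. An unfolded protein enters the barrel and folds inside it as the subunits bind and hydrolyse ATP. Actins and tubulins are its best known substrates. The subunit transcripts were followed through every probe set that the platform annotation assigns to one of these genes alone, which gave 15 probe sets for the 8 genes, out of 22548 probe sets and 17118 genes on the array. Subunits cct-1, cct-2, cct-3 and cct-4 lie on chromosome II, cct-5 and cct-6 on III, cct-8 on IV and cct-7 on V, and the mutated gene tdp-1 also lies on II.

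Total RNA of whole worms of mixed stages was hybridized to 6 Affymetrix arrays, 3 from wild-type N2 and 3 from an outcrossed strain with the tdp-1(ok803) allele, which the labels class as loss of function. The product of tdp-1 is the worm counterpart of TDP-43, a protein that binds RNA. The design text calls the arrays of a genotype biological replicates. Each value is the deposited log2 expression of a probe set on an array, so a difference of 1 is a change by a factor of 2. Differences are given as mutant minus wild type from limma, a linear model fitted over all probe sets, with the Benjamini-Hochberg adjusted p over all of them and a threshold of 0.05.

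The mutation was visible in its own transcript. The brighter tdp-1 probe set read 8.86, 9.22 and 8.85 in wild type and 4.77, 4.78 and 5.47 in the mutant. Array medians lay between 5.41 and 5.52. Control probe sets at the 3' and 5' ends of the actin and Gapdh transcripts show how intact the RNA was and how completely labelling ran along it. Their mean 3' minus 5' difference was 2.69, 4.12 and 2.52 on wild-type replicates 1, 2 and 3 and 4.01, 3.09 and 4.31 on mutant replicates 1, 2 and 3. The arrays therefore fell into 3 of lower difference (mutant replicate 2 with replicates 1 and 3 of wild type) and 3 of higher difference (mutant replicates 1 and 3 with wild-type replicate 2), a division that crosses the genotypes without balancing them. Values bearing on it are given beside the results.

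No CCT probe set passed the threshold (0 of 15 in limma, smallest adjusted p = 0.608), where 0.0577% of all probe sets did. At an unadjusted p under 0.05 there was 1, a cct-4 probe set that was lower in the mutant, against 6.97% of all probe sets in either direction and 3.38% lower. An unmoderated linear model called 0 of all 22548 probe sets, so its 0 in CCT says nothing particular to CCT. Under an unadjusted 0.05 it had 0 of the 15, beside 1358 of the 22548. A fit with estimated array weights called 10 of the 15, beside 27.9% of all probe sets, and rested mainly on 1 array of each genotype. The 15 differences had a median of -0.22 and ran from -1.03 to 0.055, and 13 of them were below 0, where the median over all probe sets was 0.0021 and 49.5% were below 0. The 15 are not independent of each other, since they measure 8 genes of the same 6 RNA samples. In whole worms, fewer cells of a type and less RNA per cell cannot be told apart.

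**Figure D1:**
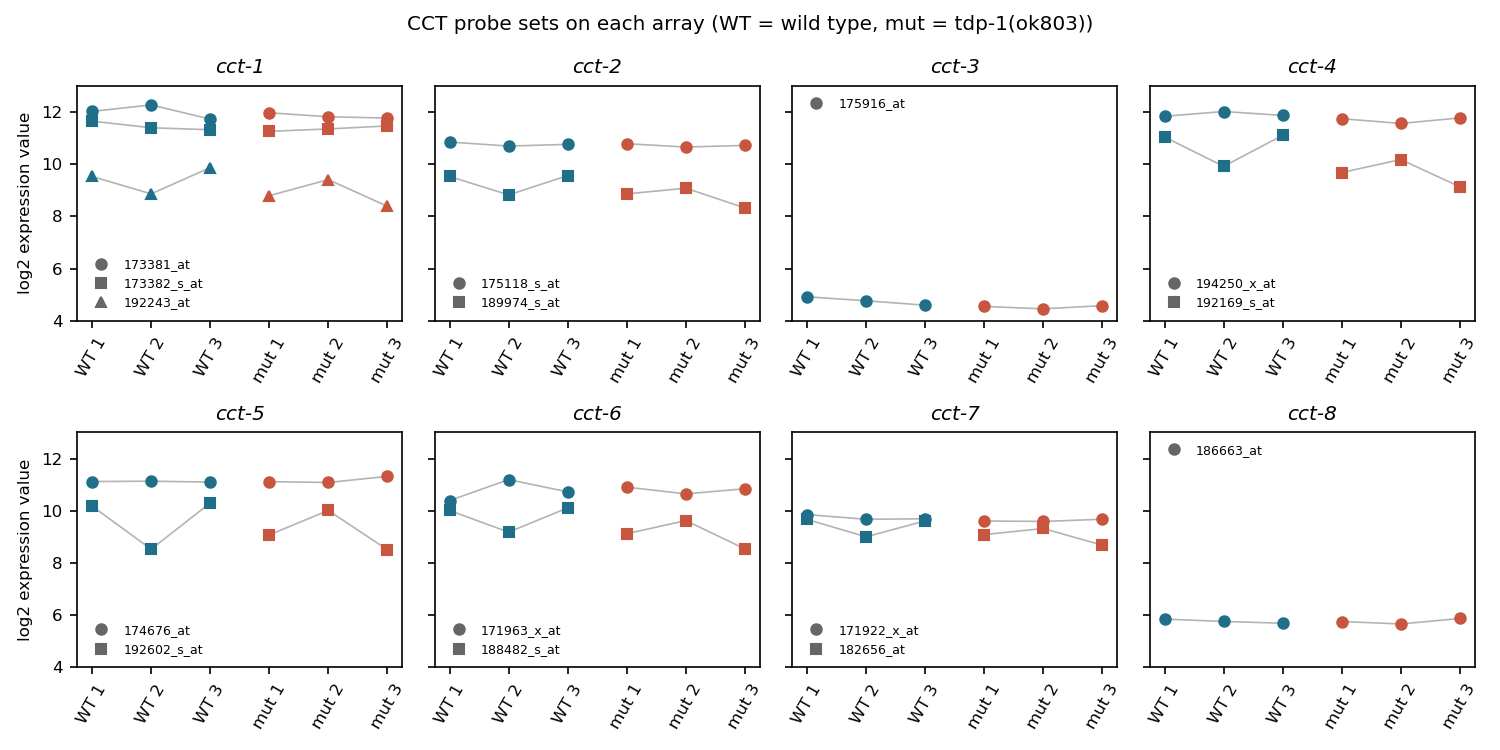
Log2 expression of the 15 CCT probe sets (symbols) on each of the 6 arrays, one panel per gene, with wild type (WT) in blue and tdp-1(ok803) (mut) in red; grey lines only join the arrays of a genotype. A lower trace each of cct-1, cct-2, cct-4, cct-5, cct-6 and cct-7 dips on the same 3 arrays, wild-type replicate 2 and mutant replicates 1 and 3, and moves more than the uppermost trace of its gene.

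The size of the difference depended on which probe set of a gene was read. Taking the brightest probe set of each gene, by its mean over all arrays, the 8 subunits had a median difference of -0.081 and ran from -0.23 to 0.055. The other 7 probe sets had a median of -0.55 and ran from -1.03 to -0.10. This order did not hold once the 3' minus 5' control difference of each array entered the fit as a covariate, with a median of -0.15 over the brightest and -0.11 over the other 7. Within the 3 arrays of lower control difference the medians were -0.13 and -0.32, and within the 3 of higher difference -0.12 and -0.23. Levels of different probe sets are not set against each other here, because brightness also depends on the probes.

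The clearest case was cct-4, whose counterpart in yeast binds ATP readily and whose rat counterpart is mutated in a hereditary sensory neuropathy. Its probe set 192169_s_at read 11.04, 9.92 and 11.11 in wild type and 9.68, 10.18 and 9.13 in the mutant. The lowest wild-type value, on replicate 2, lay below the highest mutant value, on replicate 2, so the groups overlapped. The difference was -1.03 ± 0.37 (SE), or 2.04-fold lower, with a 95% interval from -1.87 to -0.18 (limma adjusted p = 0.608). The other cct-4 probe set, 194250_x_at, read 11.84, 12.02 and 11.87 in wild type and 11.75, 11.56 and 11.78 in the mutant. The groups did not overlap there, with the mutant lower by a small margin. Its difference was -0.22 ± 0.12 (SE), with an interval from -0.49 to 0.063 (limma adjusted p = 0.812). The ending x_at marks a probe set with probes that may also match other sequences, so its reading is less specific to cct-4. The brightest probe sets of cct-6 and cct-7 carry the same ending and the same limit.

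For cct-1, which encodes the alpha subunit, 3 probe sets were present. Probe set 173381_at read 12.03, 12.27 and 11.73 in wild type and 11.97, 11.82 and 11.77 in the mutant, and 173382_s_at read 11.65, 11.40 and 11.32 against 11.26, 11.35 and 11.47. The groups overlapped in both, with differences of -0.16 ± 0.16 and -0.10 ± 0.13 (SE). The third, 192243_at, read 9.53, 8.86 and 9.87 against 8.79, 9.41 and 8.39, and its difference was -0.56 ± 0.32 (SE, limma adjusted p = 0.822). It was high on mutant replicate 2 and on replicates 1 and 3 of wild type and low on the remaining arrays, again with overlap.

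The beta subunit gene cct-2 showed the same division. Its brighter probe set, 175118_s_at, read 10.85, 10.70 and 10.76 in wild type and 10.79, 10.66 and 10.72 in the mutant, all 6 within 0.19 of each other. The difference was -0.05 ± 0.11 (SE), with a 95% interval from -0.30 to 0.21. The dimmer one, 189974_s_at, read 9.53, 8.83 and 9.56 against 8.86, 9.08 and 8.32, a difference of -0.55 ± 0.26 (SE, limma adjusted p = 0.756). Mutant replicates 1 and 2 read above wild-type replicate 2, so the groups overlapped.

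In cct-5, the epsilon subunit gene, whose human counterpart is mutated in a hereditary sensory neuropathy, the probe sets differed most in their spread between arrays. Probe set 174676_at read 11.12, 11.13 and 11.10 in wild type, an SD of 0.017, and 11.12, 11.08 and 11.32 in the mutant. Its difference was 0.055 ± 0.12 (SE). Probe set 192602_s_at read 10.18, 8.52 and 10.30 against 9.08, 10.01 and 8.51. Its wild-type SD was 0.99, and the difference of -0.47 ± 0.53 (SE, limma adjusted p = 0.910) was smaller than that spread.

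The zeta subunit gene cct-6 and the eta subunit gene cct-7 followed. For cct-6, 171963_x_at read 10.39, 11.19 and 10.72 in wild type and 10.90, 10.65 and 10.84 in the mutant, a difference of 0.029 ± 0.20 (SE). Its second probe set, 188482_s_at, read 10.01, 9.18 and 10.11 against 9.12, 9.62 and 8.54, a difference of -0.67 ± 0.32 (SE, limma adjusted p = 0.765). Both overlapped between genotypes, and 188482_s_at was lowest on the 3 arrays of higher 3' minus 5' difference. For cct-7, 171922_x_at read 9.85, 9.67 and 9.69 against 9.61, 9.59 and 9.67, a difference of -0.12 ± 0.11 (SE). Probe set 182656_at read 9.67, 9.002 and 9.61 against 9.08, 9.32 and 8.68, a difference of -0.40 ± 0.23 (SE, limma adjusted p = 0.822).

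The gamma subunit gene cct-3 and the theta subunit gene cct-8, a subunit known in worms for promoting assembly of the complex, had 1 probe set each. The cct-3 probe set, 175916_at, read 4.92, 4.77 and 4.60 in wild type and 4.55, 4.45 and 4.58 in the mutant. The groups did not overlap, the nearest pair by less than 0.02 (4.595 and 4.580), and the difference was -0.23 ± 0.13 (SE, limma adjusted p = 0.800). These values lie below the median of every array, and whether they exceed background was not assessed. The cct-8 probe set, 186663_at, read 5.84, 5.75 and 5.69 against 5.75, 5.66 and 5.87, close to the array medians, with a difference of -0.0012 ± 0.12 (SE). Together with 194250_x_at of cct-4, the cct-3 probe set was 1 of 2 among the 15 whose mutant values lay wholly below the wild-type values, where 4.84% of all probe sets did so; 0 lay wholly above, against 6.8%.

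The precision differed between the brightest probe sets and the rest. Over the brightest probe set of each gene the 95% intervals, not adjusted for their number, reached at most 1.44-fold lower, in cct-1, and at most 1.41-fold higher, in cct-6. For cct-2 the interval ran from 1.23-fold lower to 1.16-fold higher, for cct-5 from 1.16-fold lower to 1.25-fold higher and for cct-8 from 1.21-fold lower to 1.20-fold higher. The intervals of cct-3 and cct-8 come from values below or close to the array medians, where signal over background was not assessed. The SEs of the 6 probe sets that varied most ran from 0.23 to 0.53, against 0.11 to 0.20 for the remaining 9. These 6, 1 each from cct-1, cct-2, cct-4, cct-5, cct-6 and cct-7, were picked out after their values were seen. They were the probe sets whose gap to the brightest of their gene separated the arrays of lower and higher 3' minus 5' difference. Their relation to that difference therefore follows in part from the pick, and no test is given for them as a set.

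**Figure D2:**
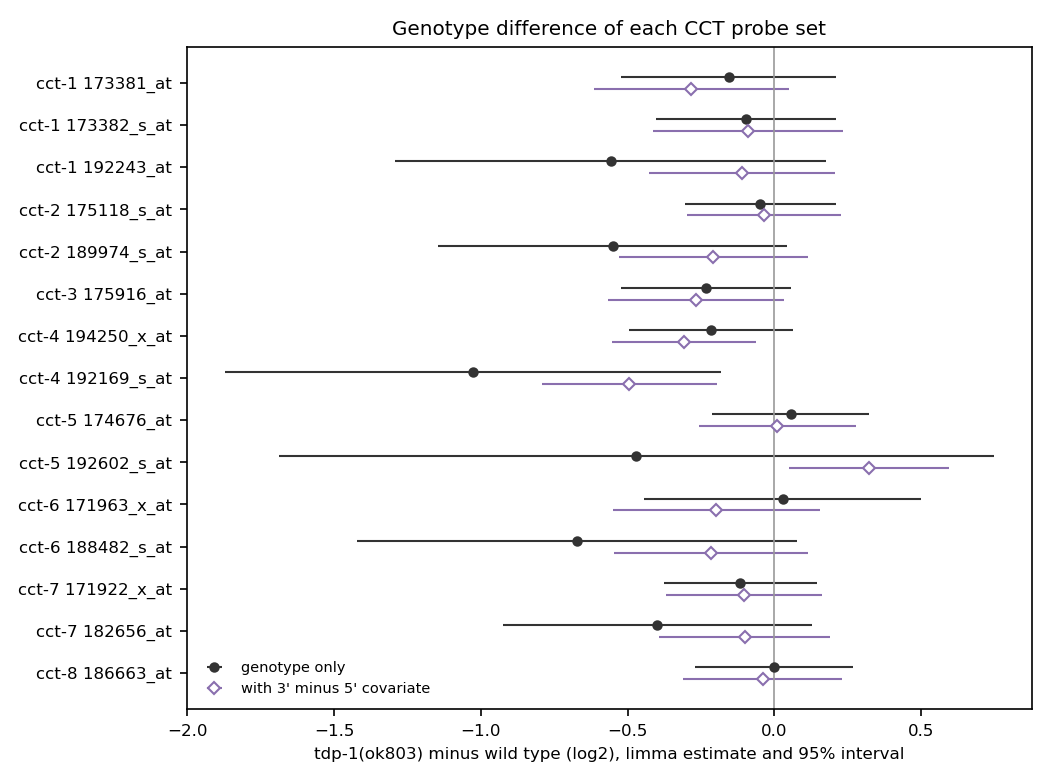
Difference of each CCT probe set between tdp-1(ok803) and wild type on the log2 scale (horizontal axis, 3 arrays each), from limma with genotype alone (filled circles) and with the control difference of each array as a covariate (open diamonds); bars are 95% intervals. With genotype alone the interval of 1 probe set of cct-4 lies wholly below 0, and with the covariate the widest intervals shrink and the -1.03 of that probe set becomes -0.49.

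Those 6 probe sets rose and fell together over the arrays and, as their pick favours, with the 3' minus 5' control difference. Relative to their own means they averaged 0.59, -0.35 and 0.69 on wild-type replicates 1, 2 and 3 and -0.30, 0.20 and -0.81 on mutant replicates 1, 2 and 3. The remaining 9 averaged 0.065, 0.11 and -0.05 in wild type and -0.02, -0.12 and 0.013 in the mutant. All 3 arrays of lower 3' minus 5' difference were above the mean in the 6 probe sets, and all 3 of higher difference were below it, in both genotypes. At fixed genotype their slopes ran from -1.15 to -0.43 log2 units per log2 unit of that difference, and those of the other 9 from -0.02 to 0.33. Among all probe sets, 6.79% had a slope of -0.43 or below.

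Reading 2 probe sets of a gene on the same array compares them within 1 RNA sample. The gap between 174676_at and 192602_s_at of cct-5 was 0.94, 2.61 and 0.80 in wild type and 2.04, 1.07 and 2.81 in the mutant. For cct-4 the gap between 194250_x_at and 192169_s_at was 0.79, 2.10 and 0.76 against 2.06, 1.38 and 2.64. In both genes every array of higher 3' minus 5' difference had a wider gap than every array of lower difference, and wild-type replicate 2 sat with mutant replicates 1 and 3. The same held for 1 gap each of cct-1, cct-2, cct-6 and cct-7, so for all 6 subunits with more than 1 probe set. It did not hold for the gap between 173381_at and 173382_s_at of cct-1, which was 0.37 to 0.47 on the lower and 0.30 to 0.88 on the higher arrays. The mutant minus wild-type change of the 6 gaps was between 0.28 in cct-7 and 0.81 in cct-4, so the probe sets of 1 gene gave unequal differences between the genotypes.

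**Figure D3:**
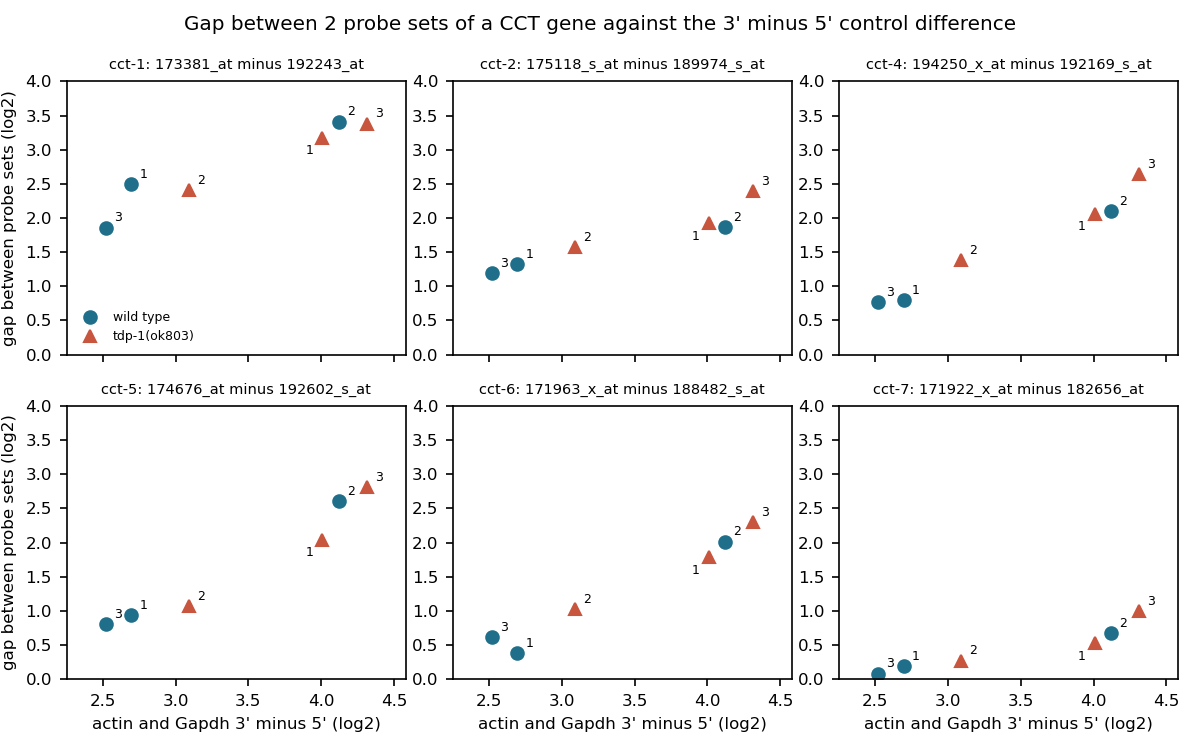
For the 6 CCT genes with more than 1 probe set, the gap in log2 value between the brightest probe set and a dimmer one on each array (vertical axis), against the mean 3' minus 5' difference of the actin and Gapdh control probe sets on that array (log2, horizontal axis); circles are wild type, triangles tdp-1(ok803), and digits are replicate numbers. In every panel the 3 arrays at 4.01 to 4.31 have wider gaps than the 3 at 2.52 to 3.09, whichever genotype they come from.

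Such disagreement was not confined to the chaperonin. The slopes of the probe sets of a CCT gene differed by 0.41 in cct-7 to 1.21 in cct-5, and 38.4% of the 2981 genes with more than 1 probe set had a gap of 0.41 or more, with a median of 0.31. Among those genes the brightest probe sets had a median difference between genotypes of 0.055 and the others one of -0.06, in the same order as for CCT and closer together. Of their 3648 other probe sets 66.2% had a difference below that of the brightest of the gene, against 6 of the 7 in CCT. With the covariate these became 48.6% and 3 of 7.

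With that control difference entered as a covariate, the median over the 15 probe sets was -0.11, and 0 passed (limma), with 3 at an unadjusted p under 0.05 where 10.7% of all probe sets were. These were both probe sets of cct-4, at -0.31 (194250_x_at) and -0.49 (192169_s_at), and 192602_s_at of cct-5, which turned from -0.47 to 0.32. The covariate brought the 2 probe sets of cct-7 to -0.10 each and those of cct-6 to -0.20 and -0.22, from 0.029 and -0.67. In the remaining genes the probe sets stayed apart. They stood at -0.03 and -0.21 in cct-2, and 174676_at of cct-5 stood at 0.011, below the 0.32 of 192602_s_at. In cct-1 the order turned, with the brightest at -0.28 and the others at -0.09 (173382_s_at) and -0.11 (192243_at). Within the 3 arrays of lower difference the median over the 15 was -0.23, and within the 3 of higher difference it was -0.20. Those comparisons rest on 1 array of a genotype against 2, and within the lower class the mutant array had the highest 3' minus 5' difference, 3.09 against 2.52 and 2.69. In both classes 10 of the 15 probe sets were below 0, where 30.3% of all probe sets were. These were all probe sets of cct-1, cct-3, cct-4 and cct-7 and 1 each of cct-2 (189974_s_at) and cct-6 (188482_s_at). The cct-4 probe set 192169_s_at stood at -0.90 in the lower and -0.51 in the higher class. For cct-5, 192602_s_at was -0.23 in the lower and 0.27 in the higher class.

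Over the 6 arrays the 15 pairs among the 6 variable probe sets had correlations with a median of 0.96, from 0.88 to 0.99, although they belong to different genes. The 36 pairs among the other 9 had a median of 0.28, and the 54 pairs across the divide one of -0.003. All points of a pair share an array and its RNA sample, and the 6 were picked by the 3' minus 5' classes, so these are descriptions. The probe sets of 1 gene could thus follow each other less closely than they followed those of other subunits, as for cct-5, where the 2 had a correlation of -0.65.

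The mean of the 8 brightest probe sets moved over a range of 0.25 on the log2 scale. Of 17110 other genes, 264 had a correlation above 0.9 with it over the 6 arrays. The 5 closest were F28E10.1, W03F11.5, sti-1, gab-1 and srxa-10, with correlations from 0.990 (srxa-10) to 0.997 (F28E10.1). Of these sti-1 encodes the Hop co-chaperone, which links Hsp70 and Hsp90. It read 7.41, 7.73 and 7.24 in wild type and 7.35, 7.01 and 7.37 in the mutant. Genes gab-1 and srxa-10 read below the median of every array, and F28E10.1 and W03F11.5 read close to the medians. The CCT mean also holds cct-3 and cct-8, which read below or close to them, and signal over background was not assessed. With 6 arrays and so many genes, near-perfect likeness is common, and it is given as a description.

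Partners of the chaperonin were then read from lists. Prefoldin, a jawed hexamer that hands nascent actin and tubulin to CCT, is encoded by pfd-1 to pfd-6, all measured by 1 probe set each. None of the 6 passed (0 in limma, 0 at an unadjusted p under 0.05), and their median was -0.05. The largest differences were -0.28 ± 0.21 (SE) in pfd-3 and -0.22 ± 0.11 (SE) in pfd-2, and pfd-1 was at 0.10. With the 3' minus 5' covariate pfd-3 stood at -0.03 and pfd-2 at -0.19. Gene pfd-2 read 10.79, 10.71 and 10.72 in wild type and 10.56, 10.54 and 10.46 in the mutant, without overlap. The other members, pfd-4, pfd-5 and pfd-6, differed by 0.047, -0.03 and -0.08.

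The actins are major clients. Probe sets naming act-3, act-4 and act-5 alone differed by 0.020, -0.03 and -0.16, with 0 of 3 passing, and act-1 and act-2 were only on probe sets that name several actins, which were not used. Among 16 tubulin genes 0 passed and 3 were lower at an unadjusted p under 0.05, where 3.38% of all probe sets were. Their median was -0.20, and 13 were below 0 against 49.5% of all probe sets. With the 3' minus 5' covariate that median was -0.08. The touch receptor tubulins mec-7 (beta) and mec-12 (alpha) differed by -0.68 and -0.47, tba-8 by -0.59 and the gamma-tubulin gene tbg-1 by -0.53 (limma adjusted p between 0.409 and 0.765). With the covariate mec-7, mec-12, tba-8 and tbg-1 stood at -0.46, -0.39, -0.74 and -0.26. The second probe set of mec-7 differed by -0.10. Of these 4, tba-8, mec-7 and mec-12 were the 3 under an unadjusted 0.05, and mec-7 and mec-12 are known from touch receptor neurons. General neuron markers mostly moved the same way, with a median of -0.44 over 9 genes and 8 of them below 0. At an unadjusted p under 0.05 there were 4 lower, where 3.38% of all probe sets were. The exception, snb-1, had the highest values of the list and differed by 0.30, and the summed neuron level overlapped between the genotypes. Within the arrays of lower 3' minus 5' difference the neuron median was -0.68, and within those of higher difference -0.048. The part of these markers in the tubulin values was not tested.

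Of the WD-repeat proteins that CCT folds, 0 of 4 passed. The Cdh1 orthologue fzr-1, an activator of the anaphase-promoting complex, read 8.53, 8.50 and 8.35 in wild type and 9.01, 8.94 and 9.32 in the mutant, all mutant values higher, a difference of 0.63 ± 0.14 (SE, limma adjusted p = 0.288). Its second probe set differed by -0.02 and read 5.12 to 5.53, close to the array medians, where signal over background was not assessed. The Cdc20 orthologue fzy-1 differed by -0.39, and the G protein beta subunit genes gpb-1 and gpb-2 by 0.046 and -0.17. With the 3' minus 5' covariate fzy-1 stood at -0.05 and fzr-1 at 0.54. The dimmer probe sets of gpb-1 differed by 0.14 and 0.20 and read 5.48 to 6.21. Tubulin folding cofactors, which take over tubulin after CCT, had a median of 0.033 over 6 genes with 0 passing. The largest was tbcd-1, cofactor D, at 9.95 ± 0.12 in wild type and 10.42 ± 0.22 in the mutant (SD, n = 3), a difference of 0.48 (limma adjusted p = 0.533), while its dimmer probe set differed by -0.20. Genes tbca-1, tbcb-1 and evl-20 differed by 0.19, -0.10 and 0.072.

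**Figure D4:**
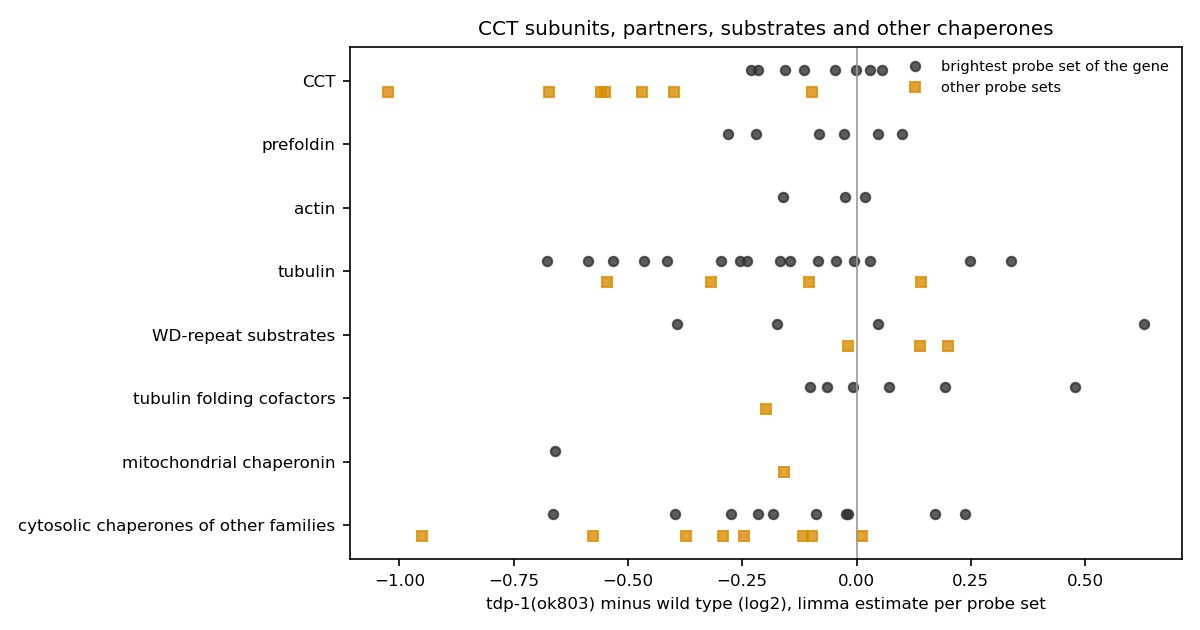
Difference between tdp-1(ok803) and wild type (log2, limma, 3 arrays each) of every probe set of the CCT genes, their partners and substrates and other chaperones; circles are the brightest probe set of a gene and squares its other probe sets. The CCT circles lie between -0.23 and 0.055, and their squares extend to -1.03.

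Among chaperones outside the complex 0 passed. The mitochondrial chaperonin gene hsp-60, a relative of CCT that uses a separate lid protein, differed by -0.66 ± 0.28 (SE, limma adjusted p = 0.713). Its slope was -0.56 per log2 unit of the 3' minus 5' controls, and its difference became -0.27 once the covariate entered. Its dimmer probe set differed by -0.16. Of 10 cytosolic chaperone and regulator genes, read by their brightest probe sets, 1 was under an unadjusted 0.05, as were 6.97% of all probe sets. It was the myosin chaperone gene unc-45, at -0.40 ± 0.15 (SE, limma adjusted p = 0.621). The median of the 10 was -0.14. Over all 18 probe sets of these genes 3 were under an unadjusted 0.05. Besides unc-45 these were dimmer probe sets of hsp-110 at -0.95 and dnj-13 at -0.58 (limma adjusted p = 0.460 and 0.647). The brightest of these genes differed by -0.02 and -0.09. With the covariate unc-45 stood at -0.53 and the dimmer probe sets of hsp-110 and dnj-13 at -0.67 and -0.32. The DnaJ genes dnj-12 and dnj-19 differed by -0.66 and 0.17 and the heat shock factor gene hsf-1 by 0.24. With the covariate dnj-12, dnj-19 and hsf-1 stood at -0.16, 0.18 and 0.19. Their dimmer probe sets differed by 0.013 in dnj-12, by -0.12 and -0.37 in dnj-19, by -0.25 in hsf-1 and by -0.10 in unc-45. Over all these partner, substrate and chaperone lists 14 genes had more than 1 probe set. Of their 17 dimmer probe sets 10 had a difference below that of the brightest of the gene and 7 one above it. In CCT these counts were 6 and 1 of 7. Among the 7, those of dnj-12, unc-45 and hsp-60 read below every array median, and those of gpb-1 read 5.48 to 6.21. Among the 10, that of fzr-1 read 5.12 to 5.53. Signal over background was not assessed for them. The dimmer CCT probe sets all read 8.32 or more, so the counts are not like for like.

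Of 7 marker lists for the tissues and stages in such cultures, 1 had summed levels that did not overlap between the genotypes. All 8 genes of the moulting larval epidermis were below 0, with a median of -0.98 and 0 passing in limma (6 lower at an unadjusted p under 0.05, beside 3.38% of all probe sets). Their summed level was 11.47 to 12.21 in wild type and 10.76 to 11.08 in the mutant (log2 of the linear sum). Germline and oocyte markers, 12 genes, had a median of 0.005, with 6 below 0 and summed levels of 15.08 to 15.12 against 15.05 to 15.27. Of the 12, 2 were higher at an unadjusted p under 0.05, beside 6.97% of all probe sets in either direction, and 0 passed in limma. In 2 the mutant lay wholly above wild type, where 6.8% of all probe sets did. Of 9 neuron markers 8 were below 0, with a median of -0.44, 0 passing in limma and 4 at an unadjusted p under 0.05, and 3 lay wholly below wild type, where 4.84% of all probe sets did. Their summed level overlapped, at 11.67 to 11.86 in wild type and 11.60 to 11.89 in the mutant. The highest values in that sum were those of snb-1, the synaptobrevin gene, which differed by 0.30. It lay wholly above wild type, where 6.8% of all probe sets did. Its dimmer probe set differed by -0.33. Of 9 body wall muscle markers 6 were below 0, with a median of -0.20 and 2 lower at an unadjusted p under 0.05. The 8 embryo, 8 sperm and 8 intestine markers had medians of 0.091, -0.081 and -0.04, with 2, 7 and 5 below 0. Their summed levels overlapped as those of muscle did. Of the 8 embryo markers 1 was higher at an unadjusted p under 0.05. The mutant lay wholly above wild type in 1 embryo marker and wholly below it in 1 sperm marker. Within the arrays of lower and of higher 3' minus 5' difference the moult epidermis medians were -1.20 and -0.47. Those of neuron were -0.68 and -0.048 and those of muscle -0.40 and 0.17. Germline stood at 0.11 and -0.13 and embryo at 0.10 and -0.18. Sperm stood at -0.16 and 0.027 and intestine at 0.045 and 0.077. No value on this scale is 0, so none of the markers was listed as absent. Their part in the CCT values was not tested.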

How the data were processed

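Biotin-labelled RNA of 3 wild-type and 3 tdp-1(ok803) samples was run on Affymetrix whole-genome worm arrays, per the labels. The deposited values are log2 expression, as judged from their range. The submitters' processing notes name RMA and Partek without settings. Scanner files were not used, so signal over background was not assessed, and the number of arrays limits the precision.

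Of 22625 probe sets, 77 controls were kept apart. Among the 22548 tested, 20766 had a single gene symbol, 887 had several and 895 had none in the platform annotation. Gene IDs gave current symbols from the WBcel235 table for all but 65, and daf-21 was read as hsp-90. Differences come from limma 3.58.1 (R 4.3.3), using lmFit and eBayes on genotype alone, two-sided, fitted over all probe sets and tested on simulated data. Figures were drawn with matplotlib 3.10.9.

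The members and gene lists were chosen with earlier results of these data known. The text names every CCT probe set, tdp-1, every prefoldin gene, up to 4 members of each other list by smallest p, and the 5 genes most like the CCT mean. Genes were read by the probe set with the highest mean, except CCT, where all are shown. Further probe sets of genes named outside CCT are added beside it. Genes snb-1, hsp-110 and dnj-13 were added after their values were seen. Alternatives were eBayes with trend and robust, no moderation, quantile normalization, equal medians, dim probe sets left out, a replicate block, array weights, the 3' minus 5' covariate and leaving out each array. Same-numbered arrays had deviations from their group means correlated at 0.05, -0.61 and -0.46. Each number joins arrays of opposite 3' minus 5' classes, so these values cannot show whether same-numbered samples were handled together. The main fit used no pairing.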

Additional observations from a re-analysis of the deposited data

How the results depend on the processing

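In the 14 alternative fits the CCT count was 0, as with genotype alone, except with array weights, where limma called 10 of 15, 9 lower and 1 higher, beside 6291 of all probe sets (27.9%); those weights were 7.91 for wild-type replicate 1 and 4.16 for mutant replicate 1 against 0.27 to 0.54 for the rest, so that fit compared mainly 2 arrays from opposite 3' minus 5' classes. At an unadjusted p under 0.05 the count was 1. The CCT median of -0.22 was -0.34 with array weights and -0.11 with the 3' minus 5' covariate, and, chosen after seeing the data, -0.081 over the brightest probe sets and -0.55 over the others (-0.15 and -0.11 with the covariate); leaving out 1 array gave -0.24 to -0.15. Single CCT differences changed sign in 11 of 210 fits, in 5 probe sets, and none of those 11 was called. The count over all probe sets, 13 (7 higher, 6 lower), was 0 without moderation (1358 at an unadjusted p under 0.05), 7 with equal array medians (5 higher, 2 lower), 5 with the replicate block, 25 with the covariate (12 higher, 13 lower) and 6 at a threshold of 0.01. Leaving out wild-type replicates 1, 2 and 3 gave 5, 97 (12 higher, 85 lower) and 22 (13 higher, 9 lower) and mutant replicates 1, 2 and 3 gave 4, 7 and 4. The replicate block left the CCT count at 0 and the CCT median at -0.22, and 1 of 6 arrays correlated best with its own number. With 3 arrays per genotype, SEs of up to 0.53 leave the differences of the most variable CCT probe sets poorly resolved.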

Other observations

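Read by their brightest probe sets, the 4 subunit genes on chromosome II, which also carries tdp-1, differed by -0.16 (cct-1), -0.05 (cct-2), -0.23 (cct-3) and -0.22 (cct-4), with a median of -0.19. The 4 on chromosomes III, IV and V had a median of 0.014, from -0.12 to 0.055. Over all 3013 genes on chromosome II the median was 0.013 with 46.9% below 0, and over 14063 genes on other chromosomes it was 0.013 with 47.0% below 0. With the 3' minus 5' covariate the CCT medians were -0.27 and -0.07. The difference between the chromosomes was not tested, since it was noticed in these values, and none of the 8 probe sets passed in limma. Of these, the probe sets of cct-3 and cct-8 read below or close to the array medians. The other probe sets on II differed by -0.10 and -0.56 in cct-1, -0.55 in cct-2 and -1.03 in cct-4. Those of cct-5, cct-6 and cct-7 differed by -0.47, -0.67 and -0.40, within the range of those on II.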
